A study of Mus musculus with 4 samples.

Results

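In mouse hearts 3 days after myocardial infarction, 671 of the 17269 nuclei past the quality filters in 2 libraries were endothelial-gated nuclei with messages that are known from growing vessels. They were selected on their own counts, in UMIs (unique molecular identifiers, each 1 counted transcript). A nucleus had at least 2 of the endothelial genes Pecam1, Cdh5, Flt1, Ptprb, Emcn and Egfl7 and at least 3 of the 8 angiogenic genes Kit, Angpt2, Trp53i11, Mest, Igfbp3, Col18a1, Cd109 and Bcl6b. It had at most 1 of the venous genes Selp, Slco2a1, Kcnc2 and Tll1, at most 1 of the endocardial genes Npr3, Tmem108, Smoc1 and Cytl1, and under 2% of its UMIs from the cardiomyocyte genes Ttn, Ryr2 and Myh6. These angiogenic-gated nuclei numbered 260 in the wild-type (WT) heart library and 411 in the library of hearts with the Vegfa Q150X allele.

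The study made 4 single-nucleus RNA libraries from whole adult hearts, 1 per group: WT and Q150X at homeostasis, and WT and Q150X at 3 days after infarction (3dpMI). Q150X is a stop-gained change in Vegfa that was edited into mice with CRISPR/Cas9 after a human variant. Titles and design text mark the animals as homozygous, but the design text also writes the allele in a form that leaves the other copy unclear, and the labels give neither age in weeks nor strain nor whether hearts were pooled. With 1 library per group no difference between groups can be tested, so intervals below cover counting error only and comparisons are between libraries.

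Vegfa over all nuclei past the filters was at 427 CPM (a gene's UMIs scaled to the same summed total in every library or set) in WT homeostasis and 372 CPM in Q150X homeostasis, and at 203 CPM in WT 3dpMI and 127 CPM in Q150X 3dpMI. These gene-level counts do not read the changed base, so they do not check the genotype labels. Nuclei past the filters numbered 4381 to 9149 per library, with a median depth of 934 and 994 UMIs at homeostasis against 2131 and 2859.5 UMIs at 3dpMI, WT first. Pairs of libraries shared 39 to 117 cell barcodes, 0.89% to 1.44% of the smaller library, and 1 shared barcode was angiogenic-gated in both infarction libraries.

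New vessels grow when endothelial cells at the front of a sprout, the tip cells, answer VEGF by leaving the vessel wall while their neighbours divide behind them. Tip cells are known for making apelin (Apln), for laying down new basement membrane, and for angiopoietin 2 (Angpt2), which competes with angiopoietin 1 at the receptor Tie2 (Tek) and loosens the vessel. Kit, the receptor of stem cell factor, is best known from mast cells and blood progenitors and is also made by some endothelial cells, so mast cell genes were counted beside it.

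The bases upstream of 3 genes are shown because these genes stood high together in the angiogenic-gated nuclei: Trp53i11 from the rule, and Apln and Vash1 from the 12 highest genes outside it. Each run holds the 250 bases before the RefSeq start in build GRCm38.p6, 5′ to 3′ on the gene's own strand: chr2:93187298-93187547 (plus strand) for Trp53i11, chrX:48034854-48035103 (minus strand) for Apln and chr12:86678450-86678699 (plus strand) for Vash1. Capitals mark GGAAGT, letters that ETS factors are known to bind, and GGGCGG, the GC box, each on either strand.
Trp53i11: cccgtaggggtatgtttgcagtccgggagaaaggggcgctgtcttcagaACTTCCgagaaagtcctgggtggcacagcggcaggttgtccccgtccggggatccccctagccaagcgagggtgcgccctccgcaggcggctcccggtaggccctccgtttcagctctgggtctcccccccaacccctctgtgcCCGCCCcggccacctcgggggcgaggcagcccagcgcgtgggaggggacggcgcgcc
Apln: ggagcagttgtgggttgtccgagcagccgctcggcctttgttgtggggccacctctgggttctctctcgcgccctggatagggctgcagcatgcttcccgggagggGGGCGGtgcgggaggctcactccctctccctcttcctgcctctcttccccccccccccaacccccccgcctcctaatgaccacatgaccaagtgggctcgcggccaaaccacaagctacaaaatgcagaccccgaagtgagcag
Vash1: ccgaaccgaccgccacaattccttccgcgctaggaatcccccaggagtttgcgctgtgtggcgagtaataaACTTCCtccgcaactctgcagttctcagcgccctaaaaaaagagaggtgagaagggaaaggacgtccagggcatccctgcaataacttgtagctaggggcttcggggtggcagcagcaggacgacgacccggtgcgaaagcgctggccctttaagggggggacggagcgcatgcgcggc
In Trp53i11 the ETS letters lie 201 bases and the GC box 57 bases before the start, both on the other strand. Apln has a GC box 144 bases before its start, and Vash1 has the ETS letters on the other strand, 179 bases before its start. Of the 20 genes looked up, the 8 of the rule and the 12 highest, 13 had a RefSeq window. GGAAGT was in 3 of the 13 (23.1%), against 19.7% of all 32851 windows of this length, and GGGCGG in 8 of the 13 (61.5%), against 32.7%. A match describes these letters and was not tested as a binding site.

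Angiogenic-gated nuclei took a higher share of the endothelium in the Q150X library than in the WT library after infarction, and were rare at homeostasis. Among nuclei that met the endothelial and cardiomyocyte limits alone (endothelial-gated nuclei), 260 of 3636 were angiogenic-gated in WT 3dpMI, a share of 7.15% (exact 95% binomial interval 6.33% to 8.04%). In Q150X 3dpMI it was 411 of 2559, or 16.1% (14.7% to 17.5%), and the ratio of the shares was 2.25 (1.94 to 2.6). Of all nuclei past the filters the shares were 2.84% and 5.06%, a ratio of 1.78 (1.53 to 2.07). At homeostasis the same rule found 5 of 719 endothelial-gated nuclei in WT (0.695%) and 3 of 1143 in Q150X (0.263%).

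Depth moved with these shares. The median was 4158 UMIs in the angiogenic-gated nuclei of WT and 4353 UMIs in those of Q150X. It was 1493 and 2282 UMIs in the other endothelial-gated nuclei, meaning those within the venous and endocardial limits that had fewer than 3 angiogenic genes. With every nucleus thinned to 1000 UMIs the shares were 1.96% and 5.07%, a ratio of 2.59 (1.82 to 3.68), with 762 WT and 279 Q150X nuclei left out as too shallow. At 2000 UMIs they were 8.05% and 13.4%, a ratio of 1.67 (1.34 to 2.09), with 2049 and 879 left out. The Q150X share was above the WT share at each depth.

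The ratio to homeostasis differed with depth. With all UMIs the 3dpMI share was 10.3 (4.26 to 24.8) times that at homeostasis in WT and 61.2 (19.7 to 190.1) times in Q150X. At 2000 UMIs the WT ratio was 2.37 (0.601 to 9.38), with 2 of 59 homeostasis nuclei meeting the rule, so a difference was not detectable there at this depth. At 1000 UMIs none of 254 WT homeostasis nuclei met it, which allows a share of up to 1.18% taking 3 nuclei as the limit that a count of 0 allows (the exact interval ends at 1.44%), and the Q150X ratio was 16.2 (2.26 to 116).

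**Figure D1:**
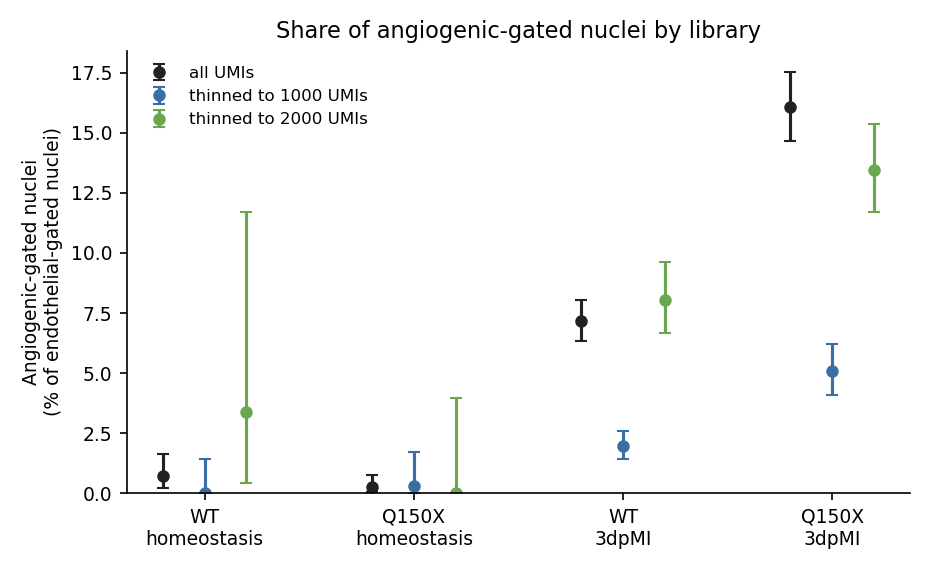
Percent of endothelial-gated nuclei (y axis) that met the angiogenic rule in each of the 4 libraries (x axis), with all UMIs and after thinning each nucleus to 1000 or 2000 UMIs; points are single libraries and bars exact 95% binomial intervals. The Q150X 3dpMI point lies above the WT 3dpMI point at each depth (16.1% against 7.15% with all UMIs).

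The limit of 3 genes cut through a continuum. Exactly 3 of the 8 genes were seen in 139 of the 260 WT and 204 of the 411 Q150X nuclei, 4 genes in 71 and 107, and 5 or more in 50 and 100. Just outside, 336 WT and 302 Q150X nuclei had 2 of the genes, at median depths of 2642 and 3796 UMIs. A further 37 WT and 67 Q150X nuclei had 3 or more but exceeded the venous or the endocardial limit.

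Summed over all endothelial-gated nuclei, which the angiogenic genes did not choose, Kit was at 27.7 CPM in WT homeostasis, 14.9 CPM in Q150X homeostasis, 96.7 CPM in WT 3dpMI and 107 CPM in Q150X 3dpMI. The 3dpMI level was 3.49 (2.29 to 5.6) times that at homeostasis in WT and 7.17 (4.57 to 11.9) times in Q150X. Col18a1, the collagen whose end fragment is endostatin, was at 23.9 and 22.7 CPM at homeostasis and at 154 and 194 CPM at 3dpMI. Angpt2 differed less, at 25.1 and 23.5 CPM against 43.6 and 45.6 CPM. For Bcl6b, a transcriptional repressor, WT had a ratio of 1.18 (0.887 to 1.6) and Q150X one of 2.17 (1.61 to 2.97). All 8 genes had a ratio above 1 in both genotypes, and the intervals of Bcl6b and of Trp53i11, at 1.37 (0.971 to 2.0), spanned 1 in WT. The 8 genes were themselves chosen with earlier results of these data known, so this direction is given as a description only.

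Between the infarction libraries these summed levels differed by less than the share of angiogenic-gated nuclei did. In Q150X over WT, Kit had a ratio of 1.1 (1.01 to 1.21) and Angpt2 of 1.04 (0.915 to 1.19). Igfbp3, which binds insulin-like growth factors, differed most of the 8, at 38.2 CPM in WT and 65.5 CPM in Q150X, a ratio of 1.72 (1.51 to 1.95). Cd109, a membrane protein that binds TGF-beta, had a ratio of 1.6 (1.37 to 1.86) and Mest, an imprinted gene, of 1.37 (1.19 to 1.58). The endothelial-gated nuclei of the Q150X library were also deeper, with a median of 2885 UMIs against 1735 UMIs in WT.

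Endothelial identity was checked on markers and on clusters. The summed level of 12 endothelial markers, of which 6 belong to the gate, was 6378 CPM in the angiogenic-gated nuclei of WT and 5796 CPM in those of Q150X, against 5926 and 4147 CPM in the other endothelial-gated nuclei. The endothelial-gated nuclei of both infarction libraries were then clustered without any gene of the rule, which gave 19 clusters. Their endothelial markers left a gap between 4422 and 7341 CPM, and the 10 clusters above 5000 CPM, a limit set after the values were seen, are called endothelial clusters here. They include cluster 5, led by the cardiomyocyte genes Cryab and Actc1, and cluster 14, led by the neutrophil genes Cxcr2 and S100a9. The endothelial clusters held 172 of the 260 WT nuclei (66.2%) and 275 of the 411 Q150X nuclei (66.9%). Within them the order of the marker sums was reversed. The angiogenic-gated nuclei were below the other endothelial-gated nuclei, at 8707 against 9757 CPM in WT and 8068 against 8781 CPM in Q150X.

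The other 88 WT and 136 Q150X nuclei lay in clusters that went against the label of blood vessel endothelium. Leading genes there were F13a1 and Tbxas1 of macrophages (cluster 1), C7 and Scara5 of fibroblasts (cluster 9), Pax5 and Ighm of B cells (cluster 13) and Prox1 and Mmrn1 of lymphatic endothelium (cluster 12). Cluster 6, with 44 angiogenic-gated nuclei, had fibroblast markers at 7170 CPM, and cluster 8, with 36, had pericyte markers at 3729 CPM. Scrublet, which scores nuclei by likeness to simulated doublets, called 53.4% of the 88 WT and 55.1% of the 136 Q150X nuclei. It called 0% of the angiogenic-gated nuclei in the endothelial clusters in both libraries. The median depth of the 88 and 136 nuclei was 6841 and 7022 UMIs, against 3406 and 3554 UMIs in the endothelial clusters. Within the endothelial clusters alone the angiogenic-gated share was 6.61% of 2603 WT nuclei and 17.7% of 1556 Q150X nuclei, and of all nuclei past the filters 1.88% and 3.39%.

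Messages of other lineages were present over the whole set, and the fibroblast and macrophage sums were lower in the endothelial clusters. All 10 fibroblast markers had UMIs, summing to 1446 CPM in WT and 1936 CPM in Q150X, and to 885 and 1211 CPM in the endothelial clusters. All 10 macrophage markers did too, at 536 and 952 CPM, and 159 and 331 CPM in the endothelial clusters. Cardiomyocyte messages, over 10 markers, summed to 2288 CPM in WT and 476 CPM in Q150X, and macrophage-gated nuclei, which have at least 3 macrophage genes and no gene of the endothelial gate, held 2180 and 806 CPM. The part of these messages in differences between the libraries was not tested. Mast cell genes were near 0, with 5 of 6 at 0 in WT and 4 of 6 at 0 in Q150X (Cpa3 and Hdc remaining there), and sums of 6.48 and 8.0 CPM.

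A pair of clusters held most of the angiogenic-gated nuclei that lay in endothelial clusters. Cluster 3, led by Bmp2, Apln, Inhbb, Kcnj2 and Pgf, held 32.3% of the WT and 36.2% of the Q150X angiogenic-gated nuclei, which made up 33.9% of its 248 WT and 53.8% of its 277 Q150X nuclei. Cluster 10, led by the cell division genes Ckap2, Esco2 and Ube2c, held 13.8% and 13.9%. Cluster 3 was 9.53% of the WT and 17.8% of the Q150X nuclei in endothelial clusters, and 2.71% and 3.41% of all nuclei past the filters. Cluster 0, led by Timp4 and other capillary genes, held 921 WT and 186 Q150X nuclei, of which 12 and 4 were angiogenic-gated.

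**Figure D2:**
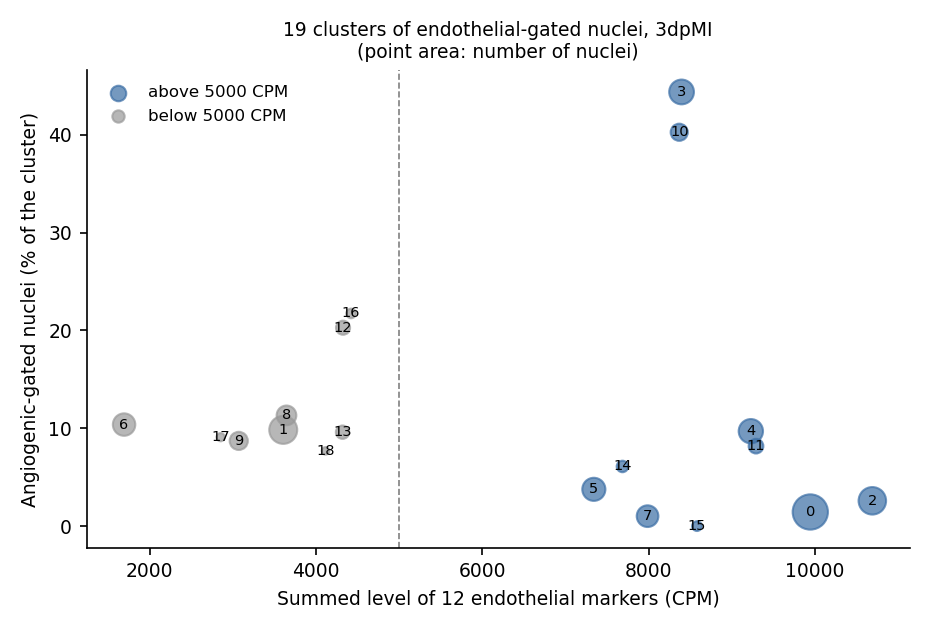
Each point is 1 of 19 clusters of endothelial-gated nuclei from the 2 infarction libraries, made without the genes of the rule; the x axis is the summed level of 12 endothelial markers in CPM, the y axis the percent of the cluster that was angiogenic-gated, and the area the number of nuclei. Clusters 3 and 10 stand highest at 44.4% and 40.3%, and the dashed line marks 5000 CPM.

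Cluster 3 is singled out here for holding more of the set than any other cluster, so higher levels of the rule's genes in it follow from that choice and are given as a description only. Kit was at 584 CPM in its WT nuclei against 82.2 CPM in the other endothelial clusters, and at 524 against 108 CPM in Q150X. Angpt2 was at 226 against 32.8 CPM in WT and 172 against 32.1 CPM in Q150X. The ratios in WT and Q150X were 7.11 and 4.86 for Kit, 6.88 and 5.38 for Angpt2, 4.95 and 2.93 for Mest and 3.58 and 5.31 for Trp53i11, which p53 induces. They were 2.49 and 3.78 for Igfbp3, 2.65 and 2.08 for Cd109, 2.01 and 1.61 for Col18a1 and 1.97 and 1.94 for Bcl6b.

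Each gene of the rule was also measured in nuclei chosen without it, by at least 3 of the other 7 genes. Kit was then at 304 CPM against 72.5 CPM in WT and at 269.7 against 66.2 CPM in Q150X, ratios of 4.2 and 4.08. The ratios were 4.56 and 3.65 for Mest, 3.98 and 2.77 for Igfbp3, 3.44 and 2.71 for Cd109 and 2.85 and 2.58 for Angpt2. They were 2.88 and 2.18 for Col18a1, 2.62 and 3.12 for Trp53i11 and 1.84 and 2.47 for Bcl6b. All 16 intervals lay above 1. The genes of the rule were chosen together with earlier results of these data known, so this direction is given as a description only.

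**Figure D3:**
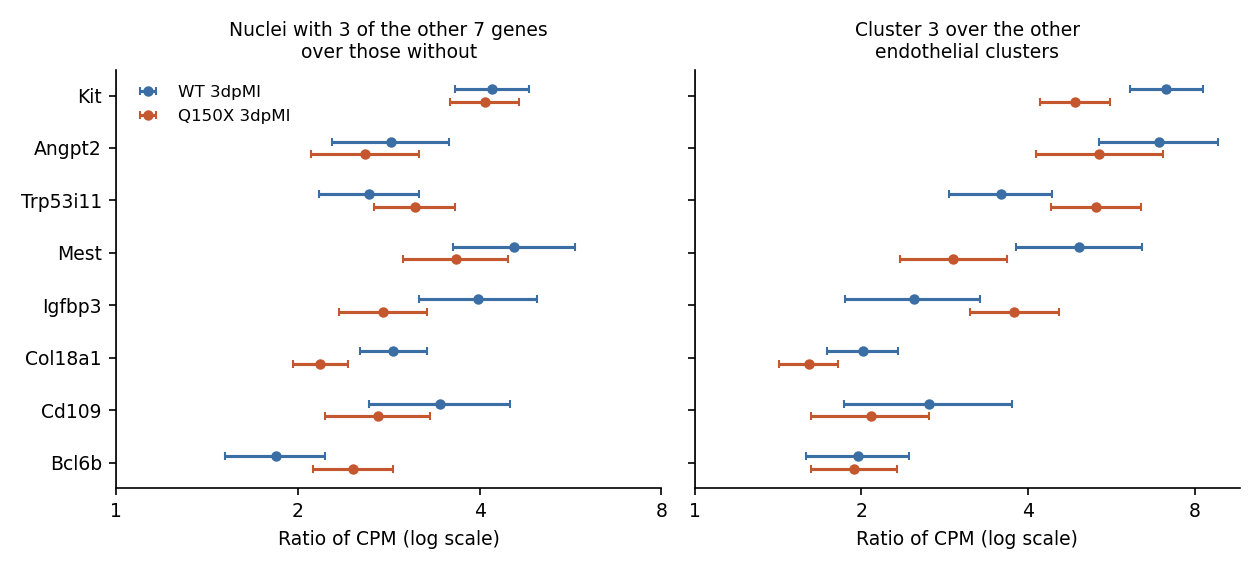
Ratio of CPM (log scale) for each of the 8 angiogenic genes of the rule in WT and Q150X 3dpMI, for nuclei with at least 3 of the other 7 genes over those without, and for cluster 3 over the other endothelial clusters. Bars are 95% counting intervals, and Kit lies at 4.2 and 4.08 on the left and 7.11 and 4.86 on the right. The 8 genes were chosen with earlier results of these data known, and the right panel describes a cluster chosen for holding these nuclei.

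Single genes of the rule were missing from many of the nuclei. Kit had a UMI in 63.5% of the WT and 53.3% of the Q150X angiogenic-gated nuclei, and Angpt2 in 33.1% and 27.5%. In WT, 59 of the 260 nuclei had both and 68 had neither. Macrophage-gated nuclei, which should lack these messages, had a UMI of any 1 of the 8 genes in 0.517% to 2.33% of 774 WT nuclei and 0.866% to 3.75% of 1732 Q150X nuclei, at median depths of 2411.5 and 2653 UMIs. Nuclei past the venous limit had Kit in 13.2% and 18.6%, at median depths of 2848 and 4151 UMIs.

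Beyond the genes of the rule, Bmp2, Apln and Pgf were among the 12 highest genes in the angiogenic-gated nuclei. Of 11169 genes with at least 50 UMIs over both sums in each library, 311 were at least 1.5-fold higher than in the other endothelial-gated nuclei in both libraries (2.78%), and 721 at least 1.5-fold lower in both (6.46%). The set was chosen on counts of these same nuclei, so the values describe it and support nothing about it. In the endothelial clusters alone 358 of 7541 genes were higher (4.75%), 145 of them among the 311, and 498 lower (6.60%), 210 of them among the 721. The 12 highest genes were ranked by the interval bound nearest 1. Among them, Bmp2, Apln and Pgf encode secreted growth signals and Vash1 a secreted inhibitor of angiogenesis. The share of such genes among all genes was not measured.

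Bmp2, a bone morphogenetic protein, was at 31.7 CPM against 2.21 CPM in WT and 33.4 CPM against 4.15 CPM in Q150X, with ratios of 14.3 (7.83 to 27.7) in WT and 8.03 (5.05 to 13.2) in Q150X. Apln was at 55.5 CPM against 8.54 CPM in WT and 41.4 CPM against 6.64 CPM in Q150X, with ratios of 6.49 (4.56 to 9.29) in WT and 6.22 (4.25 to 9.26) in Q150X. Pgf, placental growth factor, a VEGF relative that binds Flt1, was at 75.6 CPM against 16.4 CPM in WT and 53.4 CPM against 14.4 CPM in Q150X, and its WT ratio in the endothelial clusters was 8.95. All 3 growth signals were higher in the set in both libraries. Vash1, vasohibin, an inhibitor of angiogenesis that endothelium makes in answer to VEGF, was at 90.0 CPM against 26.2 CPM in WT and 110.3 CPM against 30.9 CPM in Q150X.

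The other 8 were Abca4, Chst1, Crmp1, Ift122, Itga2, Nid2, Sh2d5 and Ttc9, with ratios between 2.66 and 6.48. Nid2, nidogen 2 of the basement membrane, was at 131 CPM against 40.8 CPM in WT and 124 CPM against 39.7 CPM in Q150X. Itga2, a collagen-binding integrin subunit, had ratios of 2.91 in WT and 3.14 in Q150X. In the endothelial clusters the ratios of all 12 genes lay between 2.01 and 11.5, and in Q150X Abca4, a retinoid transporter, moved from 6.48 to 3.71 and Itga2 from 3.14 to 2.01.

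Apln, Bmp2 and Pgf were lower in nuclei with 0 to 2 angiogenic genes than in those with 3 or more. They were picked as high in nuclei with 3 or more, so this is a description only. From 3 genes upward the levels rose at each step only for Apln in Q150X and Bmp2 in WT. These Bmp2 levels rest on 13, 14 and 17 UMIs, and their intervals overlap. In WT, Apln was at 3.74 CPM in nuclei with 0 angiogenic genes, 8.53 CPM with 1, 22.4 CPM with 2, 61 CPM with 3, 60.9 CPM with 4 and 41.2 CPM with 5 or more. In Q150X it was at 5.04, 6.0, 10.4, 22, 43.7 and 65.7 CPM in the same order. Bmp2 was at 1.15 CPM with 0 genes, 22.7 CPM with 3, 32.8 CPM with 4 and 43.8 CPM with 5 or more in WT. Its levels in Q150X were 2.33, 16.8, 47 and 44.3 CPM in the same order. Pgf was at 30.8, 76.8, 53.8 and 97.9 CPM in WT and at 27, 44.1, 42 and 75.7 CPM in Q150X with 2, 3, 4 and 5 or more genes. Median depth differed along these strata too, from 1284.5 UMIs with 0 genes to 5366 UMIs with 5 or more in WT. Esm1, a tip cell marker, had 0 to 5 UMIs in each such stratum, too few to describe.

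Against homeostasis, over all endothelial-gated nuclei, the highest genes differed in how far they moved. Sh2d5 had 0 UMIs in both homeostasis libraries and 126 and 252 UMIs at 3dpMI, which is at least 3.44-fold higher in WT and at least 10.3-fold higher in Q150X with 3 UMIs as the floor of a library. Apln had 1 and 2 UMIs at homeostasis and 149 and 160 at 3dpMI, ratios of 12.2 (2.15 to 484) and 9.85 (2.68 to 82.1). Nid2 was at 57.9 and 48.6 CPM at homeostasis and 54.4 and 58.1 CPM at 3dpMI, ratios whose intervals spanned 1.

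The 8 lowest genes were Adam23, Cemip, Cmah, Cxcl2, Eln, Myrip, Sirpb1a and Timp4. Eln, elastin, was at 55.5 CPM against 190.3 CPM in WT and 44.5 CPM against 169.6 CPM in Q150X, and its ratios in the endothelial clusters were 0.135 and 0.104. Timp4, an inhibitor of metalloproteinases that capillaries of the heart make, was at 16.6 CPM against 50.5 CPM in WT and 5.78 CPM against 23.4 CPM in Q150X, with 0.147 and 0.128 in the endothelial clusters. Myrip was lower there too, at 0.128 and 0.122, and so was Cmah, at 0.0584 and 0.0995. For Cemip, Cxcl2 and Sirpb1a the angiogenic-gated nuclei of the endothelial clusters held at most 10 UMIs per library, and Adam23 had 0 UMIs there in both libraries against 59 and 8 UMIs in the other nuclei.

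**Figure D4:**
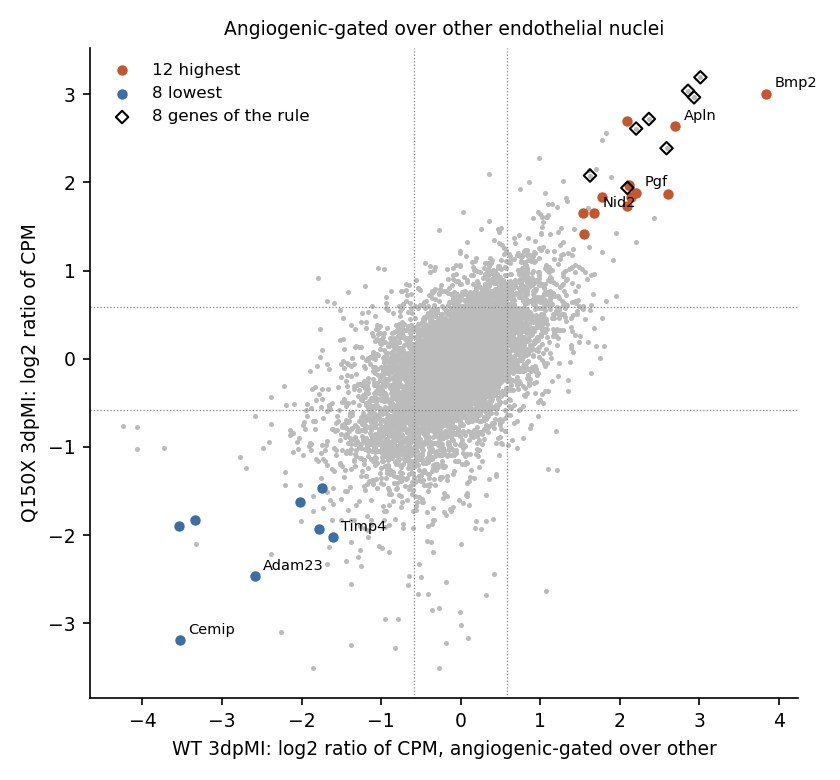
Log2 ratio of CPM, angiogenic-gated over other endothelial-gated nuclei, in WT 3dpMI (x axis) and Q150X 3dpMI (y axis) for the genes measured (grey), with the 12 highest and 8 lowest genes and the 8 genes of the rule; dotted lines mark 1.5-fold. The 12 highest lie with the genes of the rule at the upper right, Bmp2 furthest in WT at 14.3-fold.

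Kdr, Flt4, Nrp1 and Nrp2 did not reach 1.5-fold in both libraries. Of 9 genes measured on the VEGF list, Pgf was at least 1.5-fold higher in both libraries and Vegfd at least 1.5-fold lower in both. The shares of all genes were 2.78% and 6.46%. Medians on the log2 scale were -0.08 in WT and 0.05 in Q150X, beside -0.02 and -0.02 for all genes. Vegfd, a ligand of lymphatic growth, was at 1.32 and 1.39 in the endothelial clusters, where the set held 4 and 5 of its UMIs. Vegfa was at 34.6 CPM against 42 CPM in WT and 35.1 CPM against 45.5 CPM in Q150X, with 0.533 and 0.938 in the endothelial clusters, and Vegfc, the main lymphatic ligand, at 147 CPM against 222 CPM in WT and 143 CPM against 193 CPM in Q150X.

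Kdr, the main signalling receptor of VEGF, was at 302 CPM against 308 CPM in WT and 295 CPM against 186 CPM in Q150X, and in the endothelial clusters its ratios were 0.80 and 1.09. Flt4, the receptor of VEGF-C, was at 159 CPM against 114 CPM in WT and 156 CPM against 86.9 CPM in Q150X. The co-receptors Nrp1 and Nrp2 had ratios of 0.948 in WT and 1.03 in Q150X for Nrp1 and 1.36 in WT and 1.38 in Q150X for Nrp2, and Nrp1 had 0.871 and 0.934 in the endothelial clusters.

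The Tie receptors differed by under 1.5-fold. Tek was at 364 CPM against 402 CPM in WT and 324 CPM against 270.4 CPM in Q150X, and Tie1 at 197 CPM against 189.9 CPM in WT and 163 CPM against 130.1 CPM in Q150X. Both were below the other nuclei in the endothelial clusters, Tek at 0.808 and 0.765 and Tie1 at 0.852 and 0.786. Angpt1, which pericytes make and which steadies vessels, was at 29.5 CPM against 53.6 CPM in WT and 24.5 CPM against 46.7 CPM in Q150X, and in the endothelial clusters the set held 5 and 2 of its UMIs. Of the 5 genes measured on this list 0 were at least 1.5-fold higher and 2, Angpt1 and Svep1, at least 1.5-fold lower in both libraries. The shares of all genes were 2.78% and 6.46%.

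Of 12 tip cell genes measured outside the rule, 12 had a ratio above 1 in both libraries and 8 were at least 1.5-fold higher in both, beside 31.1% and 2.78% of all genes. Their medians were 0.82 and 0.94. The endothelial clusters had 7 of 12 at least 1.5-fold higher, beside 4.75% of all genes. Among nuclei of cluster 3 alone it was 1 of 9, with medians of 0.23 and 0.49, where 20 of all 2452 genes were. Plxnd1, a semaphorin receptor of sprouting vessels, was at 523 CPM against 293 CPM in WT and 512 CPM against 217 CPM in Q150X. Dll4, the Notch ligand of tip cells, was at 112 CPM against 59.5 CPM in WT and 115 CPM against 38 CPM in Q150X. Lamb1, a laminin chain, was at 309.6 CPM against 172 CPM in WT and 328 CPM against 173 CPM in Q150X, and Rhoc, a GTPase of cell movement, had ratios of 1.76 in WT and 1.54 in Q150X. Of 14 Notch and arterial genes 2, Dll4 and Notch4, were at least 1.5-fold higher in both, and 0 of 12 in the endothelial clusters. The shares of all genes were 2.78% and 4.75%.

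Of 14 basement membrane genes measured, 12 had a ratio above 1 in both libraries, beside the same 31.1% of all genes. At least 1.5-fold higher in both were 5, beside 2.78% of all genes, with medians of 0.37 and 0.61. In the endothelial clusters 9 of 14 were above 1 in both and 3 below, beside 39.7% and 30.6% of all genes. There 4 were at least 1.5-fold higher, beside 4.75% of all genes, with medians of 0.45 and 0.32. Lama4, a laminin chain of vessel walls, was at 1182 CPM against 637 CPM in WT and 1013 CPM against 540.5 CPM in Q150X. Over the whole set 1 gene was at least 1.5-fold lower in both, Fn1, fibronectin, which fibroblasts make abundantly. It was at 270 CPM against 441 CPM in WT and 442 CPM against 677 CPM in Q150X. Adamts4, a protease of proteoglycans, was at 65.5 CPM against 14.1 CPM in WT and 71.2 CPM against 28.4 CPM in Q150X, and Timp1, an inhibitor of such proteases, at 31 CPM against 64.7 CPM in WT and 34.7 CPM against 77.9 CPM in Q150X.

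Capillary identity and lipid transport genes were lower, and more of them in the endothelial clusters. Of 14 measured, 5 were at least 1.5-fold lower in both libraries and 0 higher, beside 6.46% and 2.78% of all genes. Their medians were -0.73 and -0.37. In the endothelial clusters 9 of 14 were at least 1.5-fold lower, beside 6.6% of all genes. Medians there were -1.29 and -0.97 beside 0.05 and 0.05 for all genes. Lpl, lipoprotein lipase, was at 105 CPM against 218 CPM in WT and 63.1 CPM against 114 CPM in Q150X, with ratios of 0.303 and 0.322 in the endothelial clusters. Aqp7, a glycerol channel, had 0.199 and 0.172 and Fabp4, a fatty acid binding protein, 0.693 and 0.653 there. Meox2, a transcription factor of heart capillaries, was at 1.13 and 1.25.

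Mesenchymal genes were lower. Of 13 measured, 9 were at least 1.5-fold lower in both libraries and 0 higher, beside 6.46% and 2.78% of all genes. Their medians were -0.71 and -0.83. In the endothelial clusters 6 of 9 were lower and 1 higher, beside 6.6% and 4.75% of all genes. Postn, periostin of activated fibroblasts, was at 168 CPM against 278 CPM in WT and 253 CPM against 579.9 CPM in Q150X. The summed fibroblast markers were at 2735 and 4025 CPM in the other nuclei, above the set, and their part in these values was not tested.

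Genes of the BMP pathway divided. Smad1, which carries BMP signals, was at 444 CPM against 239 CPM in WT and 438 CPM against 232 CPM in Q150X, and the inhibitor Smad6 at 46.8 CPM against 109 CPM in WT and 44.5 CPM against 68.1 CPM in Q150X, with 0.325 and 0.369 in the endothelial clusters. Inhbb, the activin beta B chain, was at 33.8 CPM against 11.1 CPM in WT and 52.9 CPM against 12 CPM in Q150X. Bmp6 was lower in the set in both libraries, with ratios of 0.557 in WT and 0.519 in Q150X, and 0.39 and 0.303 in the endothelial clusters. Of 18 genes measured 3 were at least 1.5-fold higher in both and 3 at least 1.5-fold lower in both. The shares of all genes were 2.78% and 6.46%. Klf4, a factor that blood flow induces, was at 20.9 CPM against 41 CPM in WT and 20.4 CPM against 34.9 CPM in Q150X, with 0.452 and 0.355 in the endothelial clusters.

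Nuclei with proliferation genes were more frequent in the set. Of 23 proliferation genes measured, 22 had a ratio above 1 in both libraries, against 31.1% of all genes. At least 1.5-fold higher in both were 3, against 2.78% of all genes. In the endothelial clusters 14 of 19 were, against 4.75% of all genes, with medians of 1.56 in WT and 0.72 in Q150X. Rrm2, which makes deoxynucleotides, was at 18 CPM against 8.25 CPM in WT and 21.3 CPM against 11.6 CPM in Q150X, and Mki67, a mark of cycling cells, at 183 CPM against 110.5 CPM in WT and 239 CPM against 171 CPM in Q150X. Their ratios in the endothelial clusters were 4.91 and 2.54 for Rrm2 and 2.85 and 1.33 for Mki67. After thinning to 1000 UMIs, 32.3% (26.6% to 38.4%) of the WT and 32% (27.5% to 36.8%) of the Q150X set had at least 2 of the list's genes, against 12.3% (11% to 13.8%) and 21.4% (19.4% to 23.6%) of the other nuclei. At 2000 UMIs the shares were 42.9% against 28.5% in WT and 49.3% against 39.9% in Q150X. Without cluster 10, 1 of 11 proliferation genes measured in the endothelial clusters was at least 1.5-fold higher in both, and 9 of 12 tip cell genes were. The share of all genes there was 4.32%, and the WT ratio of Mki67 was 0.783.

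Between Q150X and WT, Sema3a and Pcsk5 were higher and Bmp6 was lower in the angiogenic-gated nuclei of the Q150X library, over the whole set and in the endothelial clusters. Of 8921 genes with at least 50 UMIs over both sums, 720 were at least 1.5-fold higher in Q150X (8.07%) and 343 at least 1.5-fold lower (3.84%), with a median log2 ratio of 0.06; centred on that median the counts were 584 and 433. In the endothelial clusters 389 of 5831 genes were at least 1.5-fold higher (6.67%) and 181 lower (3.10%), of which 126 and 59 were also counted over the whole set. Kit was at 371 CPM in WT and 309.9 CPM in Q150X (ratio 0.836, 0.745 to 0.938), Angpt2 at 137 CPM in WT and 121 CPM in Q150X and Igfbp3 at 141 CPM in WT and 192 CPM in Q150X (1.36, 1.15 to 1.62). These genes belong to the rule, so their levels in the set depend on which genes let nuclei pass it. Over all endothelial-gated nuclei the ratios were 1.1 (1.01 to 1.21) for Kit, 1.04 for Angpt2 and 1.72 for Igfbp3.

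Bmp6, an endothelial BMP that acts on iron balance through hepcidin, was at 241 CPM in WT and 110.3 CPM in Q150X (0.457, 0.386 to 0.54), and at 246 CPM in WT and 84.5 CPM in Q150X in the endothelial clusters (0.344, 0.263 to 0.448). It was lower in Q150X in the other endothelial-gated nuclei too, at 433 CPM in WT and 213 CPM in Q150X. Cyp4b1, a fatty acid hydroxylase, was at 74.2 CPM in WT and 25.8 CPM in Q150X and had a ratio of 0.348. Rgs5, a regulator of G protein signals known from pericytes, was at 233 CPM in WT and 68.9 CPM in Q150X over the whole set and 66.4 CPM in WT and 18.6 CPM in Q150X in the endothelial clusters. The summed pericyte markers, which include Rgs5, were at 656 and 362 CPM over the whole set and 136 and 98.4 CPM in the endothelial clusters, and their part in this value was not tested.

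Gphn, which anchors inhibitory synapse receptors and makes the molybdenum cofactor, had the most counts of the 10 lowest genes, at 7973 CPM in WT and 4908 CPM in Q150X (0.616, 0.60 to 0.632). It also led cluster 5, where cardiomyocyte genes stood high, and the summed cardiomyocyte markers moved the same way; their part in this value was not tested. Cdk8, a kinase of the Mediator complex, was at 2566 CPM in WT and 1605 CPM in Q150X (0.625, 0.597 to 0.655). In the endothelial clusters both differed by under 1.5-fold, at 0.738 and 0.707. Vwa3a was at 27.4 CPM in WT and 5.78 CPM in Q150X, and its ratio in the endothelial clusters was 0.20 (0.057 to 0.58). Csmd1, Pink1, Serpine2 and Zfp804b had ratios between 0.182 and 0.368 over the whole set and intervals that spanned 1 in the endothelial clusters, where Csmd1 stood on 2 and 6 UMIs.

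Sema3a, a guidance signal that repels axons and vessels, was among the 10 highest, at 61.2 CPM in WT and 140.5 CPM in Q150X (2.3, 1.8 to 2.95), and at 29.4 CPM in WT and 104 CPM in Q150X in the endothelial clusters (3.54, 2.17 to 6.1). Pcsk5, a proprotein convertase, was at 23 CPM in WT and 52.5 CPM in Q150X (2.28), and its ratio in the endothelial clusters was 4.89 (2.23 to 12.7). Slc45a4, a membrane transporter, was at 82.8 CPM in WT and 152 CPM in Q150X (1.83), but its ratio within cluster 3 was 0.697 (0.346 to 1.43). H2az1, a histone variant, Eri2 and Mxd1 had ratios of 2.16, 3.09 and 3.56, and of 1.86, 4.81 and 3.31 with intervals above 1 in the endothelial clusters. Ccl21a, a chemokine of lymphatic vessels, Il1r2, a decoy receptor of interleukin 1, Pdk3 and Rpgr had ratios between 2.74 and 4.15 over the whole set and intervals that spanned 1 in the endothelial clusters.

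**Figure D5:**
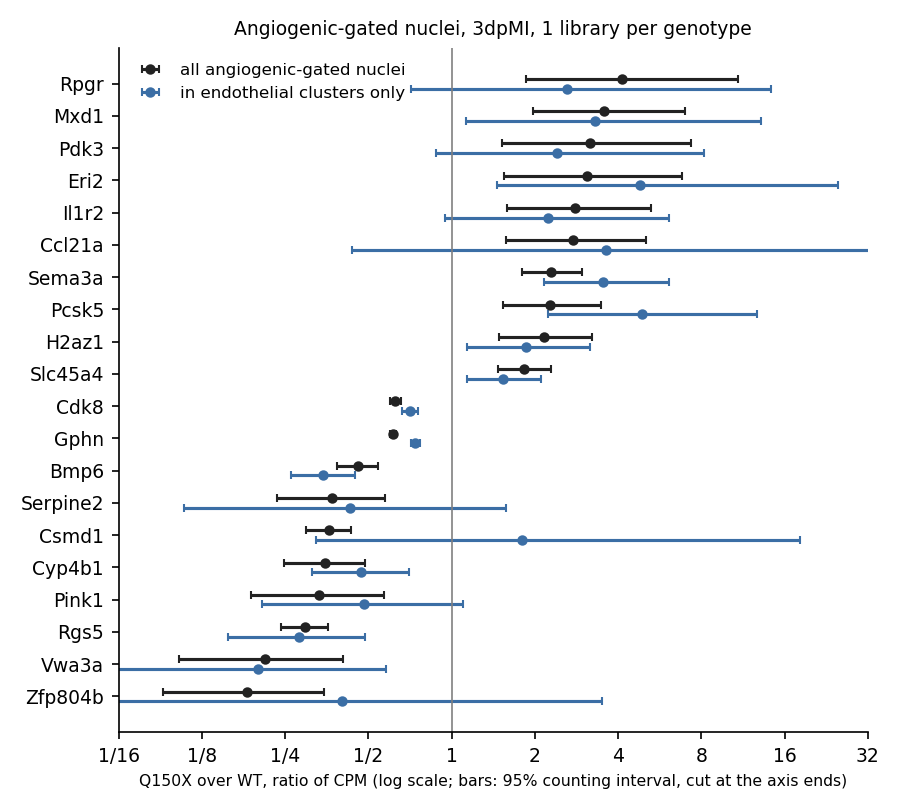
Ratio of CPM, Q150X over WT (log scale), in the angiogenic-gated nuclei at 3dpMI for the 10 highest and 10 lowest genes, over the whole set and in the endothelial clusters; bars are 95% counting intervals, cut at the axis ends. Sema3a (2.3 and 3.54) and Bmp6 (0.457 and 0.344) keep their side in both, and Csmd1 crosses 1.

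Among VEGF ligands and receptors 0 of 7 measured reached 1.5-fold in either direction, with a median log2 ratio of -0.04. A ratio below 1 was found for 6 of the 7, beside 41.2% of all genes, but for 3 of 7 without Scrublet doublets or with nuclei weighted equally and for 3 of 6 in the endothelial clusters. Pgf was at 75.6 CPM in WT and 53.4 CPM in Q150X (0.706, 0.539 to 0.926), and its ratio within cluster 3 was 0.465 (0.31 to 0.694). Nrp1, a co-receptor of VEGF-A, was at 958 CPM in WT and 778 CPM in Q150X (0.811, 0.755 to 0.872). Kdr was at 302 CPM in WT and 295 CPM in Q150X, Flt4 at 159 CPM in WT and 156 CPM in Q150X and Vegfa at 34.6 CPM in WT and 35.1 CPM in Q150X, each with an interval that spanned 1, and in the endothelial clusters the ratios of Kdr and Flt4 were 1.01 and 1.05. Nrp2, Tek and Tie1 had ratios of 0.924, 0.891 and 0.828.

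The capillary list had no stable direction between the libraries. Of 12 measured, 5 were at least 1.5-fold lower and 1 higher, beside 3.84% and 8.07% of all genes. The median log2 ratio was -0.30. In the endothelial clusters 1 of 10 was lower and 1 higher, beside 3.1% and 6.67% of all genes, with a median of -0.06. The median was 0.08 without Scrublet doublets and 0.03 without nuclei that held 2 or more genes of other lineages. Tcf15, a transcription factor of heart capillaries, was at 24.5 CPM in WT and 12 CPM in Q150X (0.49, 0.285 to 0.837). Fabp5, a fatty acid binding protein that macrophages also make, was the higher 1, at 28.8 CPM in WT and 56 CPM in Q150X (1.95).

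Most hypoxia and glycolysis genes had a ratio above 1 in the Q150X set. Of 18 measured, 17 did, beside 58.8% of all genes, or 13 of 18 when centred on the median of all genes. At least 1.5-fold higher were 3, beside 8.07% of all genes, and the median log2 ratio was 0.29 beside 0.06 for all genes. In the endothelial clusters 12 of 14 were above 1, beside 56.3% of all genes, with a median of 0.32. Slc2a1, a glucose transporter, was at 25.9 CPM in WT and 45.4 CPM in Q150X (1.75, 1.19 to 2.63). Egln3, an oxygen-sensing hydroxylase that acts on HIF, was at 19.4 CPM in WT and 36 CPM in Q150X (1.85, 1.19 to 2.98).

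Of 10 mesenchymal genes measured 9 had a ratio above 1, beside 58.8% of all genes. At least 1.5-fold higher were 3, beside 8.07% of all genes, with a median of 0.50. Centred on the median of all genes 1 of 10 was at least 1.5-fold higher, and without Scrublet doublets 0 of 8 were and 1 was at least 1.5-fold lower, with a median of 0.23. Fn1 was at 270 CPM in WT and 442 CPM in Q150X (1.64, 1.45 to 1.85) and Postn at 168 CPM in WT and 253 CPM in Q150X (1.51). The summed fibroblast markers moved the same way, at 1446 and 1936 CPM, and in macrophage-gated nuclei at 1928 and 3513 CPM; their part in the mesenchymal values was not tested. Of 12 Notch and arterial genes 10 had a ratio above 1, 7 of 12 when centred on the median of all genes, and 6 of 10 in the endothelial clusters. Gja5, connexin 40 of arteries, was the 1 at least 1.5-fold higher, at 19.4 CPM in WT and 43.1 CPM in Q150X (2.22, 1.44 to 3.54).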

How the data were processed

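Raw UMI counts were deposited by the authors, without normalisation; the file headers name Cell Ranger 7.1.0, and GRCm39 and Scanpy come from the submitters' processing notes. Settings of the barcode filter before deposit are not given in the sources used here. Groups came from the titles.

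Nuclei with at least 500 UMIs, 300 genes and at most 10% mitochondrial UMIs were kept, and their counts were summed and scaled to CPM. Shares have exact Clopper-Pearson 95% intervals, ratios of sums conditional binomial intervals and ratios of shares log intervals. All cover counting error only, with a floor of 3 UMIs for a sum of 0. Genes with at least 50 UMIs over the sums compared were counted past 1.5-fold. Ratios were checked on simulated counts. The members and the gene and marker lists were chosen with earlier results of these data known.

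Named genes were the 8 of the rule, the 12 highest and 8 lowest in the set against other nuclei, and the 10 highest and 10 lowest in Q150X over WT. The last 20 had to be at least as high in the set as in all other nuclei of the library where the gene was higher; genes of the rule, mitochondrial, ribosomal, haemoglobin and sex-linked marker genes were left out. Ranks used the interval bound nearest 1. Up to 3 genes at each end of a list with at least 20 UMIs and 7 VEGF and Tie genes were added. Leading genes of clusters describe those clusters.

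Doublets were kept and called per library with Scrublet in Scanpy 1.11.5. Where its automatic threshold marked under 0.5% of nuclei, the highest scores at 0.8% per 1000 nuclei were taken. Clusters were made with leidenalg 0.10.2. Alternatives were limits on depth, doublets, lineage genes and gene numbers, thinning, equal weights and centring; the restrictions by cluster were chosen after seeing the data. Upstream sequences are from RefSeq, build GRCm38.p6, which differs from the build of the counts.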

Additional observations from a re-analysis of the deposited data

Results flagged for a closer look

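For 9 genes named in the report the ratio of angiogenic-gated over other endothelial-gated nuclei lay on opposite sides of 1 in the WT and the Q150X library after infarction, with both 95% counting intervals clear of 1; the difference between the libraries was not tested. Pcsk5 had a ratio of 0.359 in WT and 1.38 in Q150X, Sema3a of 0.624 in WT and 1.8 in Q150X, Rpgr of 0.332 in WT and 1.55 in Q150X and Ccl21a of 0.474 in WT and 1.4 in Q150X. Of the VEGF and Tie receptors, Flt1 had a ratio of 0.795 in WT and 1.17 in Q150X and Tek of 0.905 in WT and 1.2 in Q150X. Flt1 is a gene of the endothelial gate, which chose both the set and the other nuclei. The ratios of Flt1 depend on that choice and are given as a description only. In the endothelial clusters the ratio of Tek was below 1 in both libraries. Csmd1 had a ratio of 2.06 in WT and 0.709 in Q150X, Gphn of 1.25 in WT and 0.697 in Q150X and Rgs5 of 1.13 in WT and 0.778 in Q150X. The other endothelial-gated nuclei differed in make-up, with 872 of 2943 in WT and 780 of 1756 in Q150X outside the endothelial clusters. Those outside had endothelial markers at 2913 and 2177 CPM, and Scrublet called 28.3% and 33.6% of them. The part of this make-up in the 9 ratios was not tested.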

How the results depend on the processing

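Of 83 alternative values for the 4 shares and 4 gene counts, 57 stayed close to the reported value and 26 moved. Close meant inside the reported interval for a ratio of shares and within 1.5-fold for a gene count. No ratio of shares changed direction, and a gene count has no direction to change. A close count can hold other genes. Without Scrublet doublets 498 genes were higher in Q150X, and 284 of them were among the reported 720. Where no value bears on it, the cause was not tested. The Q150X over WT ratio of endothelial shares was 1.7 with 2 of the 8 genes required, 2.87 without nuclei holding 2 or more genes of other lineages, 2.67 in the endothelial clusters and 1.67 thinned to 2000 UMIs, and the ratio over all nuclei was 1.35 with 2 genes. The ratio to homeostasis was 2.37 in WT thinned to 2000 UMIs, and in Q150X 14.5 with 2 genes and 16.2 thinned to 1000 UMIs. Where homeostasis held 0 such nuclei (WT thinned to 1000 UMIs; Q150X with 4 genes or thinned to 2000 UMIs) no ratio could be given.

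Genes higher in the set numbered 490 without Scrublet doublets, 502 with nuclei weighted equally and 153 with at least 200 UMIs per gene. Genes lower in the set numbered 1096 without doublets, 401 with 3 of the 6 endothelial genes, 408 without other-lineage nuclei, 467 in endothelial clusters without cluster 10 and 343 with at least 200 UMIs. Genes higher and lower in Q150X numbered 307 and 211 without other-lineage nuclei, 389 and 181 in the endothelial clusters, 224 and 140 in cluster 3, 1323 and 753 with at least 20 UMIs, and 128 and 62 with at least 200.

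For single genes a change of direction was counted only where the reported ratio was at least 1.5-fold with an interval clear of 1. The sums also had to hold at least 20 UMIs. By that count 8 values changed direction. Ratios nearer 1 were not counted, such as those of Tek and Tie1 in Q150X, which fell below 1 in the endothelial clusters. The Q150X over WT ratio of Ccl21a was 0.932 without other-lineage nuclei and that of Slc45a4 0.697 in cluster 3. The set over other ratio of Csmd1 in WT was 0.0392 without doublets, 0.243 in the endothelial clusters and 0.343 there without cluster 10. Rpgr in Q150X had 0.833 and 0.463 in the same settings, and Mki67 in WT 0.783 in the last.

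No paired analysis was possible because each group is 1 library, so animal and library cannot be told apart from genotype, and no value has a replicate check. Shares at homeostasis rest on 5 and 3 nuclei.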
